A study of Mus musculus with 60 samples.

Results

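Read counts of hippocampus, prefrontal cortex and striatum were added up per replicate number to ask what the loss of Adgrl3 changed across these brain regions, above all in genes that do not lie near the altered gene. Adgrl3 -/- mice (KO) were compared with Adgrl3 +/+ mice (WT). Libraries that shared genotype and replicate number were added, 3 libraries to a sum, which gave 10 KO sums and 10 WT sums out of all 60 libraries of the series. Adgrl3 lies on chromosome 5. Of the 21950 genes in the count table, 20690 lay off chromosome 5, and 15661 of these had enough reads to be tested. The mice, 12 per genotype per the labels' protocols, were 65 to 76 days old, and their brains had been frozen when the regions were cut out. The sources used here do not give the altered part of Adgrl3, the strain, sex, litters or batches of the mice, or whether 1 replicate number means 1 animal in the 3 regions.

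Adgrl3 encodes latrophilin 3, a neuronal receptor of the adhesion class of G protein-coupled receptors that binds FLRT and teneurin proteins across the synapse. In people, variants at ADGRL3 are linked to attention deficit hyperactivity disorder, and mice without the gene are studied as a model of hyperactivity. Adding regions trades the detail of each region for more reads per gene, so a small change that runs the same way in all regions becomes easier to see, while a change in 1 region is diluted.

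The libraries held 38985577 to 51387833 counted reads and the sums 130249280 to 142708341 in KO and 123615143 to 143278481 in WT. Each region gave 29.6% to 37% of the reads of a sum. Region markers, taken as their mean log2 CPM (6 genes for hippocampus, 6 for prefrontal cortex, 9 for striatum), were higher in 20 of 20 libraries of their own region than in any library of the other regions. Levels are given as CPM, the counts of a gene scaled to a common library total. Y-linked genes summed to 108 to 118 CPM in KO and 104 to 121 CPM in WT sums. WT replicate 5 went partly against its group. It had an Adgrl3 level of 144 CPM, inside the 128 to 155 CPM of the other WT sums, but for 17 of the 27 genes called below its level was in the KO range and outside the range of the other WT sums, against 0 or 1 gene for each of the other WT sums. The numbers of calls, Adgrl3, the 4 genes called off chromosome 5 and the gene lists with the largest medians are therefore also given without it.

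Adgrl3 itself had a lowest, median and highest level of 26.6, 38.4 and 43 CPM in KO sums, against 128, 147 and 155 CPM in WT sums. The groups did not overlap. The log2 difference was -1.97 ± 0.07 (SE; edgeR's quasi-likelihood test, Benjamini-Hochberg adjusted p = 4.82e-14), so that KO sums held 25.6% of the WT level. A two-sided permutation test gave p = 2e-05, the smallest its 100000 resamples can give. The difference was -1.85 ± 0.04 in hippocampus, -2.09 ± 0.14 in prefrontal cortex and -1.96 ± 0.06 in striatum. On the sums it was -1.97 ± 0.07 without WT replicate 5 (edgeR adjusted p = 1.56e-13).

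Off chromosome 5, 4 genes passed an adjusted p of 0.05, which is 0.0255% of the 15661 tested. The adjustment ran over all tested genes, those of chromosome 5 included. The epidermal filaggrin gene Flg and the synaptic adhesion gene Lrrtm2 were higher in KO. The neutral amino acid transporter gene Slc1a5 and the fascin gene Fscn2 were lower in KO. Each direction thus held 0.0128% of the tested genes. On chromosome 5, 23 of 1015 tested genes passed (2.27%), 9 higher and 14 lower in KO, and over all chromosomes 27 of 16676 (0.162%). Without WT replicate 5, 28 of 1018 genes passed on chromosome 5 (2.75%) and 4 of 15690 off it (0.0255%), of which Flg and Slc1a5 were shared with the fit on all sums. The 4 differences off chromosome 5 were small, with sizes between 0.14 and 0.59 on the log2 scale. At an unadjusted p under 0.05 there were 1569 genes off chromosome 5, 816 higher and 753 lower in KO. No gene off chromosome 5 had KO and WT sums that did not overlap (0% of 15661), and without WT replicate 5 the only one was Flg (0.00639%). On chromosome 5 the sums did not overlap for 5 of 1015 genes (0.493%), and for 17 (1.67%) without WT replicate 5. The number of calls depended on the method: DESeq2 called 84 genes off chromosome 5, 60 higher and 24 lower in KO, with the 4 edgeR calls among them. With a score of olfactory bulb markers as a covariate edgeR called 0 off chromosome 5 (793 with an unadjusted p under 0.05). That score was itself lower in KO, so its part and that of genotype cannot be fully told apart in this fit. With chromosome 5 and mitochondrial genes left out of the fit and of the adjustment, edgeR called 0 of 15648 genes (1583 with an unadjusted p under 0.05). No gene passed within that set alone, so the 4 calls hold for the adjustment over all tested genes.

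**Figure D1:**
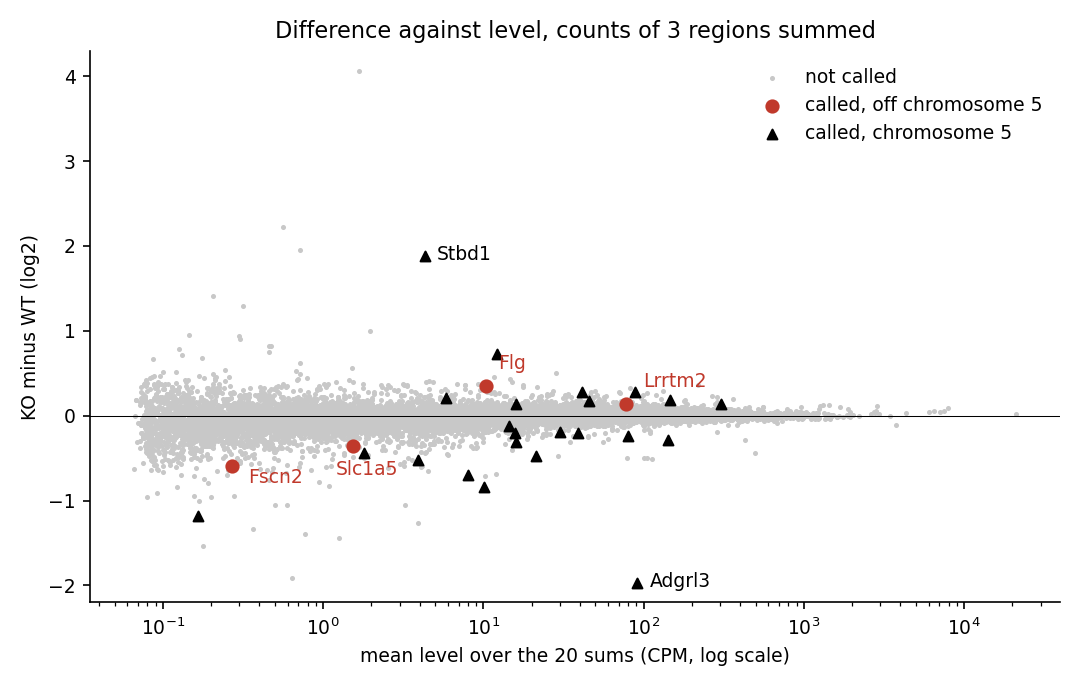
Log2 difference, KO minus WT (vertical), against the mean level over the 20 sums in CPM (horizontal, log scale), one point per tested gene. Red circles are the 4 genes called off chromosome 5, which lie close to the cloud of genes not called (grey), while black triangles, the 23 called genes of chromosome 5, reach -1.97 (Adgrl3) and 1.88 (Stbd1).

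Flg (chromosome 3, GRCm38, 93273523 to 93293686, plus strand) encodes profilaggrin, whose product filaggrin bundles keratin in the outer epidermis. Its lowest, median and highest level was 10.4, 11.7 and 12.8 CPM in KO sums, against 8.08, 8.71 and 12.4 CPM in WT sums. All 10 KO sums lay above the WT mean. The high WT value was that of WT replicate 5, and the other 9 WT sums ended at 9.24 CPM, below the lowest KO sum. The log2 difference was 0.35 ± 0.06 (edgeR adjusted p = 0.00967). Without WT replicate 5 it was 0.41 ± 0.04 with an adjusted p of 2.86e-06, and with the score of olfactory bulb markers as a covariate 0.34 ± 0.09 with 0.370. The library of WT replicate 5 stood apart in each region. In hippocampus WT replicate 5 had 14 CPM where KO libraries had 11.7 to 15 and the other WT libraries 9.49 to 11.7. In prefrontal cortex it had 10.7 CPM, against 9.46 to 11.8 in KO and 6.58 to 8.85 in the other WT libraries. In striatum it had 12.4 CPM, against 9.02 to 13.3 in KO and 7.24 to 9.38 in the other WT libraries.

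The annotation places a pseudogene inside Flg, and whether it is transcribed was not tested. Rplp0-ps1 (chromosome 3, 93278141 to 93279073, plus strand) is a processed pseudogene, a copy of a spliced messenger RNA, of 933 bases within the span of Flg and on its strand. Its parent gene Rplp0, which encodes a stalk protein of the large ribosomal subunit, lies on chromosome 5 and was among the genes called there. The count table held gene totals and no read positions. Among nested genes whose inner gene had at least 6000 reads, the outer gene had fewer reads than the inner one in 0 of 493 pairs on the same strand and in 82 of 222 pairs on opposite strands. Counting by strand over the whole gene span, introns included, would give such numbers, but no label or header states how the reads were counted. The pseudogene matched the Rplp0 transcript in 892 of 948 aligned columns (94.1%), with 41 substitutions and 15 gap columns. The longest identical run was 93 bases, and 0 of its 834 windows of 100 bases were found unchanged in that transcript. A stretch of 120 bases with the median number of substitutions shows how alike the copies are. It runs from base 207 to base 326 of the Rplp0 transcript and covers chr3:93278226-93278345 on the plus strand in the pseudogene, both read from GENCODE M21, and capitals mark the 4 bases that differ.
Rplp0: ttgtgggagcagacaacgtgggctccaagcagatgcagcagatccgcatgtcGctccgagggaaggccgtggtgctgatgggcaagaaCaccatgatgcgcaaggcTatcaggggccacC
Rplp0-ps1: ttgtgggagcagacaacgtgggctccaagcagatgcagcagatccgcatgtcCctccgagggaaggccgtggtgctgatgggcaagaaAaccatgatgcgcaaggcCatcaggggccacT

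Rplp0 and Flg moved in opposite directions and WT replicate 5 stood apart in both. Rplp0 had 118 to 148 CPM in KO sums, against 152 to 172 CPM in the 9 other WT sums and 124 CPM in WT replicate 5. Its log2 difference was -0.29 ± 0.05 (edgeR adjusted p = 0.00978), and -0.32 ± 0.04 without WT replicate 5 (adjusted p = 0.000107). In each region WT replicate 5 again had the lowest WT level of Rplp0. A search of GENCODE M21 for pseudogenes off chromosome 5 of the 23 called chromosome 5 genes, with at least 90% identity over at least 200 bases, was made after these values were seen. It found 9 pseudogenes, 6 of them copies of Rplp0, and Flg was the only tested gene off chromosome 5 that held one on its own strand. How many Flg reads came from Rplp0 or from Rplp0-ps1 was not tested, so the Flg difference is uncertain as a change of filaggrin RNA. Of the 7 filaggrin and S100-fused protein genes listed, only Flg and the trichohyalin gene Tchh (-0.11 ± 0.06) had enough reads to be tested. Of 21 cornified envelope and keratin genes 16 were tested and none passed, with a median of -0.02 against 0.00 for all tested genes. No gene within 1 Mb of Flg had an unadjusted p under 0.05 among the 5 tested.

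**Figure D2:**
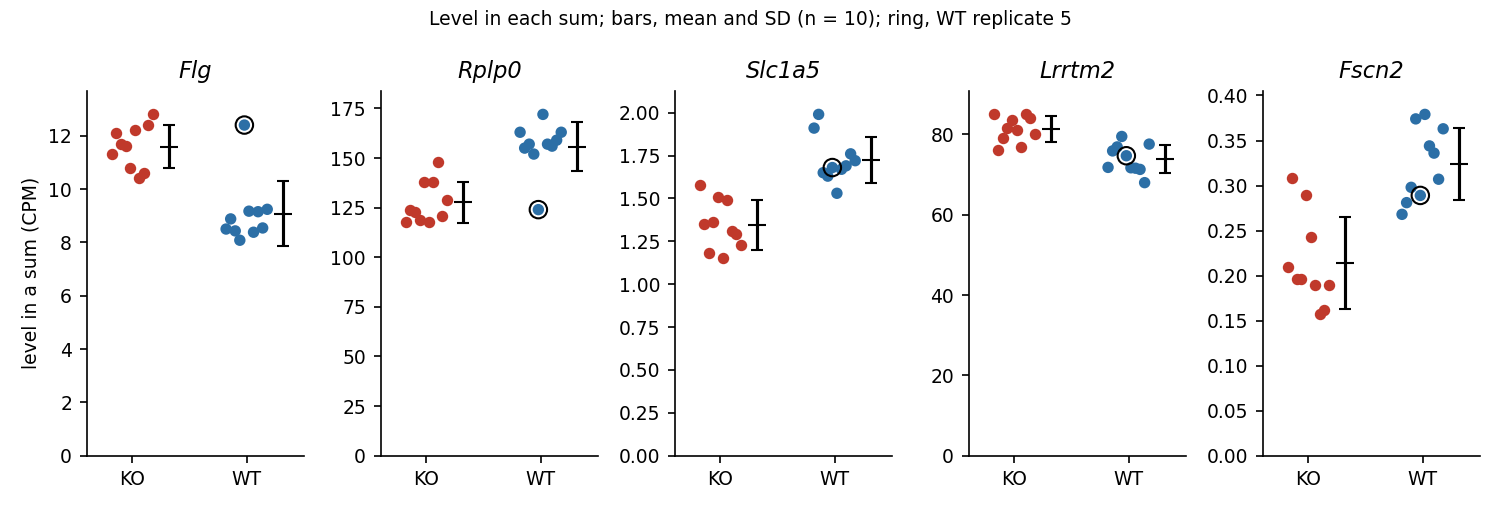
Level in CPM (vertical, from 0) of Flg, Rplp0, Slc1a5, Lrrtm2 and Fscn2 in each of the 10 KO sums (red, left) and 10 WT sums (blue, right), with mean and SD beside the points. The ringed WT replicate 5 lies among the KO sums for Flg (12.4 CPM) and Rplp0 (124 CPM), and among the WT sums for Slc1a5, Lrrtm2 and Fscn2.

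Slc1a5 (chromosome 7, 16781340 to 16798274, plus strand) encodes a sodium-dependent exchanger of glutamine and other neutral amino acids. It was a weakly expressed gene, with 150 to 283 reads in a sum. Its lowest, median and highest level was 1.15, 1.33 and 1.58 CPM in KO sums, against 1.53, 1.68 and 1.99 CPM in WT sums. Of the KO sums 9 lay below every WT sum, and the groups overlapped by the highest KO sum. The log2 difference was -0.36 ± 0.06 (edgeR adjusted p = 0.0127), a KO level of 78.1% of WT. Without WT replicate 5, whose 1.68 CPM was the WT median, it was -0.36 ± 0.07 with an adjusted p of 0.0168. The call was kept when any 1 of the 20 sums was left out (adjusted p of 0.00776 to 0.0369). By region the difference was -0.21 ± 0.13 in hippocampus, -0.50 ± 0.12 in prefrontal cortex and -0.34 ± 0.10 in striatum. Without the prefrontal cortex libraries it was -0.28 ± 0.07 and the adjusted p 0.124, and with the score of olfactory bulb markers as a covariate -0.25 ± 0.08 and 0.681.

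No other member of the SLC1 family passed. The astrocyte glutamate transporter gene Slc1a3 had 553 CPM in KO and 530 CPM in WT sums on average (0.06 ± 0.03, edgeR adjusted p = 0.407), and Slc1a2, which encodes the main glutamate transporter of astrocytes, 2759 and 2687 CPM (0.04 ± 0.04). Slc1a4, which encodes the other neutral amino acid exchanger of the family, had 66.2 CPM in KO and 65.2 CPM in WT sums. The 7 tested members had a median log2 difference of 0.02. Of 23 other amino acid transporter genes none passed (median 0.00), and the proton-coupled transporter gene Slc36a1 had the smallest p (0.10 ± 0.03, adjusted p = 0.320). None of 14 genes of glutamine and serine metabolism (median 0.00) and none of the 13 tested ATF4 targets, which respond to amino acid shortage (median -0.01), passed.

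Lrrtm2 (chromosome 18, 35209011 to 35215024, minus strand) encodes a leucine-rich repeat protein of excitatory postsynapses that binds neurexins. Its lowest, median and highest level was 76.1, 81.4 and 85 CPM in KO sums, against 68, 73.2 and 79.5 CPM in WT sums. All 10 KO sums lay above the WT mean and 7 above every WT sum, and the ranges overlapped. The log2 difference was 0.14 ± 0.03 (edgeR adjusted p = 0.0497), a KO level of 110% of WT. It was alike in size in the 3 regions, with 0.14 ± 0.04 in hippocampus, 0.13 ± 0.05 in prefrontal cortex and 0.14 ± 0.04 in striatum. The call lay at the threshold. It was kept in only 4 of the 20 fits that left out 1 sum (differences 0.13 to 0.15, adjusted p 0.0217 to 0.105), and without WT replicate 5 the adjusted p was 0.0592. With the score of olfactory bulb markers as a covariate the difference was 0.10 ± 0.04 and the adjusted p 0.809. Lrrtm2 lies inside the alpha-catenin gene Ctnna1 on the other strand, and Ctnna1 had 69 CPM in KO and 67.9 CPM in WT sums (0.02 ± 0.03, adjusted p = 0.85).

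Lrrtm2 was the 1 gene that passed among 21 leucine-rich repeat adhesion genes of synapses. Over all 16676 tested genes 10.5% had an unadjusted p under 0.05, 5.5% with a higher and 5.04% with a lower level in KO. Of the others in this list, 3 had one, all higher in KO: Lrrtm1 (0.10 ± 0.04), Lrfn2 (0.23 ± 0.08) and Slitrk6 (0.37 ± 0.18). The list as a whole was split, 10 higher and 11 lower in KO, with a median of -0.01. Of the 15 latrophilins and latrophilin ligands only Adgrl3 passed. The paralogue Adgrl1 had 662 CPM in KO and 658 CPM in WT sums (0.01 ± 0.04), and Adgrl2 83.9 and 81.2 CPM (0.05 ± 0.05). The teneurin gene Tenm4 had the smallest p after Adgrl3 (-0.11 ± 0.06, edgeR adjusted p = 0.489), and the FLRT genes ranged from -0.05 (Flrt2) to 0.05 (Flrt3). None of the 15 neurexin, neuroligin and partner genes passed (median 0.00). The same held for the 22 AMPA and NMDA receptor and postsynaptic scaffold genes (median 0.03, 4 with an unadjusted p under 0.05 against the 10.5% of all tested genes, all 4 higher in KO, among them the AMPA receptor auxiliary subunit gene Cacng2 with 0.12 ± 0.03).

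Fscn2 (chromosome 11, 120361534 to 120368168, plus strand) encodes an actin-bundling fascin known from photoreceptors and hair cells. It had only 21 to 51 reads in a sum. Its lowest, median and highest level was 0.157, 0.196 and 0.308 CPM in KO sums, against 0.268, 0.322 and 0.379 CPM in WT sums. Of the KO sums 8 lay below every WT sum, and KO replicates 2 and 5 lay among the WT sums. The log2 difference was -0.59 ± 0.12 (edgeR adjusted p = 0.0497). It was kept as a call in 2 of the 20 fits that left out 1 sum (adjusted p of 0.0134 to 0.106), and without WT replicate 5 the adjusted p was 0.0520. The gene had enough reads to be tested by region only in hippocampus, with 0.323 ± 0.13 CPM in KO and 0.501 ± 0.121 CPM in WT libraries (SD, n = 10 each; log2 difference -0.62 ± 0.20). Within 1 Mb, 58 other genes were tested around Fscn2, 38 around Slc1a5 and 35 around Lrrtm2, and none of them passed the adjusted threshold. An unadjusted p under 0.05 in edgeR was found for 6, 2 and 3 of them, against 10.5% of all tested genes. The smallest of these p belonged to Myadml2 near Fscn2 (-0.17 ± 0.04).

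**Figure D3:**
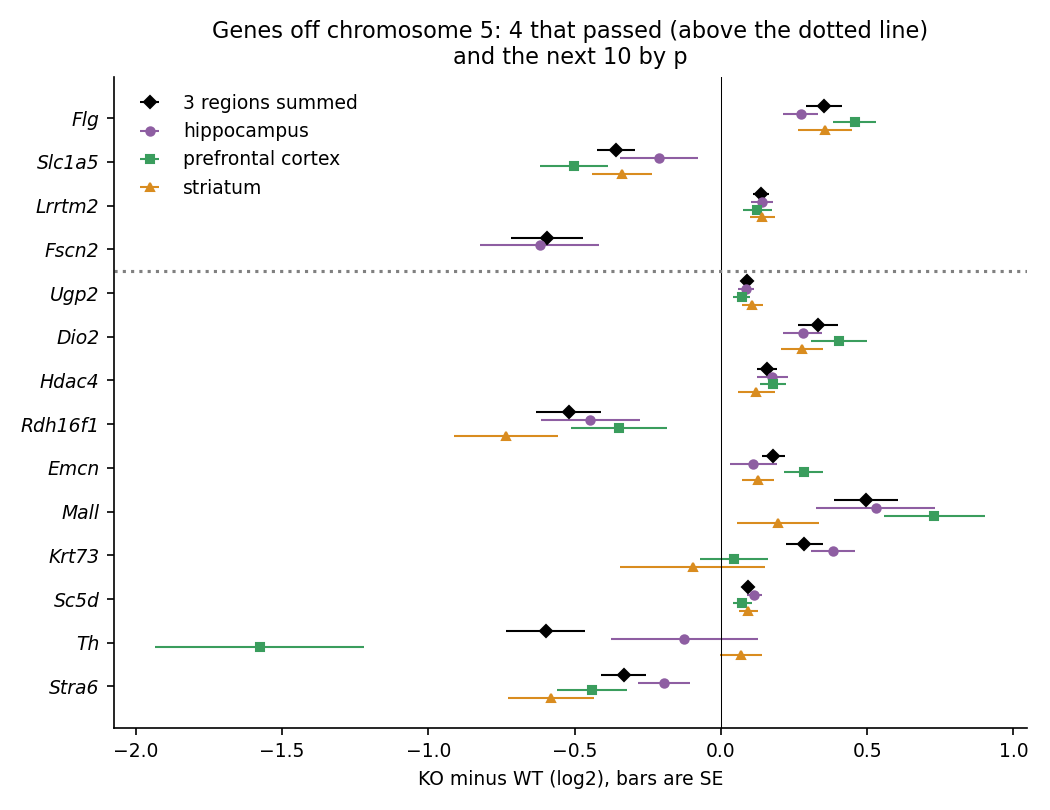
Log2 difference, KO minus WT (horizontal, bars are SE), of the 4 genes called off chromosome 5 (above the dotted line) and the next 10 by p, on the sums (black diamonds) and in each region. Lrrtm2 lies between 0.13 and 0.14 in the 3 regions, while Th reaches -1.58 in prefrontal cortex and lies near 0 in striatum.

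The 10 genes that came next by p did not pass and are given as values. Dio2, which encodes the enzyme that activates thyroid hormone in astrocytes, had 71.7, 89.9 and 114 CPM as lowest, median and highest level in KO sums, against 62.9, 71.6 and 80.4 CPM in WT sums (0.33 ± 0.07, edgeR adjusted p = 0.052). It was 0.28 ± 0.07 in hippocampus, 0.40 ± 0.10 in prefrontal cortex and 0.28 ± 0.07 in striatum. The UDP-glucose pyrophosphorylase gene Ugp2 (0.09 ± 0.02), the histone deacetylase gene Hdac4 (0.16 ± 0.03), the endothelial sialomucin gene Emcn (0.18 ± 0.04), the MAL-like gene Mall (0.50 ± 0.11), the keratin gene Krt73 (0.29 ± 0.06) and the sterol desaturase gene Sc5d (0.09 ± 0.02) were likewise higher in KO. The retinol transporter gene Stra6 (-0.33 ± 0.08), the tyrosine hydroxylase gene Th (-0.60 ± 0.13) and Rdh16f1 (-0.52 ± 0.11) were lower in KO. Rdh16f1 overlaps Rdh1 and Rdh9 on its strand, so its count may hold reads of those genes, which was not tested. Krt73 drew its difference from hippocampus (0.38 ± 0.08), with 0.05 ± 0.12 in prefrontal cortex and -0.10 ± 0.25 in striatum. Without WT replicate 5, Emcn and Krt73 passed (adjusted p = 0.0363 each) in place of Lrrtm2 and Fscn2.

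Whether a genotype difference varied among regions was tested on all 60 libraries with a genotype by region interaction. No gene passed in edgeR, 0 of 15135 off chromosome 5 (0%) and 0 of 16121 in all, while 993 of those off chromosome 5 had an unadjusted p under 0.05. Leaving out WT replicate 5 gave 0 calls off chromosome 5 and 1 in all. The limma voom fit with the replicate number within genotype as a random block called 3 genes off chromosome 5 (Scgn, Nmb and Nppa). Among the 4 genes called on the sums the interaction p was 0.0524 for Flg, 0.236 for Slc1a5, 0.983 for Lrrtm2 and 0.507 for Fscn2. The smallest adjusted p off chromosome 5 belonged to the calcium sensor gene Scgn (0.0661), which had 0.261 CPM in KO and 1.24 CPM in WT libraries of prefrontal cortex, and 1.08 and 1 CPM in hippocampus. The neuropeptide gene Nmb followed with 0.97 CPM in KO and 2.04 CPM in WT libraries of prefrontal cortex, 2.46 and 2.37 CPM in hippocampus (adjusted p = 0.0661). Nmb overlaps Sec11a on its strand, so its count may hold reads of that gene, which was not tested. Next were Th (0.0837), with 2.66 CPM in KO and 7.99 CPM in WT prefrontal cortex, and Nudt8 (0.109), which overlaps the olfactory bulb gene Doc2g on its strand. Leaving out KO replicate 7 raised the number of calls off chromosome 5 to 16, leaving out WT replicate 4 gave 5 and leaving out WT replicate 7 gave 8. Scgn and Th, like Trh, are themselves members of the list of olfactory bulb and newborn neuron genes given below. That list is therefore not independent of these differences, and the part of such cells in them was not tested.

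On chromosome 5 the calls spanned 50.7 Mb, from 73292784 to 123969895, on both sides of Adgrl3 (81020138 to 81825133). The 6 with the smallest p besides Adgrl3 were the cytochrome oxidase assembly gene Cox18 (0.72 ± 0.05), the acid amidase gene Naaa (-0.48 ± 0.05), Sdad1 (-0.31 ± 0.04), the kinase gene Cdkl2 (0.28 ± 0.04), Ociad1 (0.14 ± 0.02) and the coronin gene Coro1c (-0.23 ± 0.03). The median size of the 22 calls besides Adgrl3 was 0.28 on the log2 scale and the largest 1.88 (Stbd1, 2.42 ± 0.09 without WT replicate 5), against a median of 0.36 for the 4 calls off chromosome 5. Of these 22, WT replicate 5 was in the KO range only for 16, in the range of the other WT sums only for 2, in both for 1 and in neither for 3.

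The called genes of chromosome 5 differed in their level in WT replicate 5. On a scale where 0 is the mean of the other WT sums and 1 the mean of the KO sums, Adgrl3 stood at 0.008. Both called genes before it are given. Ociad1, 7.73 Mb before it, stood at -0.18. Srd5a3, 4.88 Mb before it, stood at 0.38, above the highest of the other WT sums (0.33) and below the lowest KO sum (0.40), although it lies closer to Adgrl3 than Ociad1. After Adgrl3, Adamts3, 8.66 Mb after it, stood at 0.17 and Mthfd2l, 9.91 Mb after it, at 0.13. Cox18, 9.19 Mb after it, stood at 0.51, with 11.7 CPM in WT replicate 5, 14.5 to 16.3 CPM in KO and 8.26 to 9.47 CPM in the other WT sums. From 11 Mb onwards the called genes stood between 0.60 and 1.19, as with Stbd1 at 1.02 (11.6 Mb), Coro1c at 1.09 (32.8 Mb) and Rplp0 at 1.13 (34.5 Mb). Off chromosome 5, Flg stood at 1.24, while Lrrtm2 stood at 0.13, Slc1a5 at 0.10 and Fscn2 at 0.27.

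**Figure D4:**
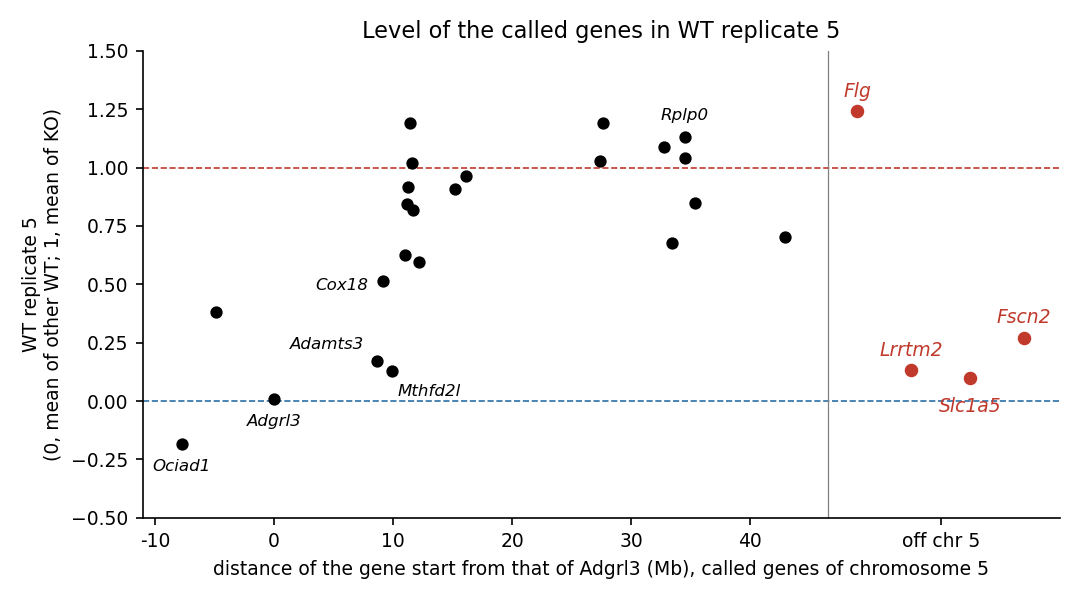
Level of each called gene in WT replicate 5 (vertical; 0 is the mean of the other 9 WT sums, 1 the mean of the 10 KO sums) against distance from the start of Adgrl3 in Mb (horizontal), with the 4 calls off chromosome 5 at the right in red. Genes from 11 Mb onwards lie between 0.60 and 1.19 and Adgrl3 at 0.008, and Flg, on chromosome 3, lies at 1.24.

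The gene lists showed few calls on the sums. Of all lists of cell types, neuronal signalling and stress, those with a gene that passed were the ones of Adgrl3, Lrrtm2, Slc1a5, Flg and, among 77 tested cytosolic ribosomal protein genes (median 0.01), Rplp0. In bulk tissue, fewer cells of a type and less RNA per cell cannot be told apart. Several lists nonetheless lay away from the median of all tested genes (0.00). Of all 16676 tested genes 8327 were lower in KO, and 841 (5.04%) were lower with an unadjusted p under 0.05 in edgeR. All 12 olfactory bulb and newborn neuron genes were lower in KO (median -0.60), 9 with an unadjusted p under 0.05, among them Tbx21 (-1.34 ± 0.32, edgeR adjusted p = 0.125), a transcription factor gene of olfactory bulb projection neurons. Their summed level was 59.4 to 95.7 CPM in KO and 65 to 120 CPM in WT sums. The olfactory bulb score averaged the log2 CPM of Tbx21, Eomes, Cdhr1 and Doc2g and was 0.228 ± 0.633 in KO and 1.41 ± 0.783 in WT sums (SD, n = 10 each). All 15 choroid plexus genes were lower in KO (median -0.43) but none with an unadjusted p under 0.05, and their summed level was 307 to 2052 CPM in KO and 276 to 1635 CPM in WT sums. All 6 tested erythrocyte genes were lower in KO (median -0.50, 5 with an unadjusted p under 0.05), with a summed level of 237 to 521 CPM in KO and 295 to 677 CPM in WT sums. Without WT replicate 5 the medians of these 3 lists were -0.48, -0.36 and -0.50, with 9, 0 and 5 genes under an unadjusted p of 0.05. In that fit 755 of all 16708 tested genes were lower in KO with such a p. No defining marker of these lists was at 0 in all sums. The part of these cells in the calls off chromosome 5 was not tested. The score used as a covariate itself differed between KO and WT sums, so that fit cannot fully tell it from genotype.

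Lists that lay above the median of all tested genes included oligodendrocyte genes (14 of 15 higher in KO, median 0.10), heat shock and endoplasmic reticulum stress genes (24 of 26 higher, median 0.08) and immediate early genes (16 of 19 higher, median 0.14). In these lists no gene passed. An unadjusted p under 0.05, which 5.5% of all tested genes had with a higher level in KO, was found for 1 of the 15, 7 of the 26 and 1 of the 19, all higher in KO. The medians without WT replicate 5 were 0.14, 0.07 and 0.14. The summed level of the oligodendrocyte genes was not higher in KO, with a median of 4634 CPM in KO and 4648 CPM in WT sums. For the stress genes these medians were 7478 CPM in KO and 7042 CPM in WT, and for immediate early genes 1794 and 1595 CPM. The stress transcription factor gene Xbp1 stood at 0.28 ± 0.10 and the chaperone gene Chordc1 at 0.18 ± 0.06. The activity-induced gene Homer1 stood at 0.36 ± 0.13 (edgeR adjusted p = 0.320). Summed immediate early genes ranged from 1248 to 2215 CPM in KO and from 783 to 2004 CPM in WT sums, so the ranges overlapped. Microglia genes had a median of 0.04 (12 of 14 higher, 5 with an unadjusted p under 0.05, all higher), excitatory neuron genes 0.06 (13 of 17), astrocyte genes 0.02 (8 of 13) and endothelial genes 0.01 (7 of 13). Of the hypothalamus, septum and pituitary genes 10 of 13 were higher in KO (median 0.14, and 0.15 without WT replicate 5). Pmch, which encodes melanin-concentrating hormone, had the largest difference of all tested genes, 4.06 ± 1.03 with an adjusted p of 0.163, and in striatum it ranged from 0 to 52.6 CPM in KO and from 0.0428 to 0.564 CPM in WT libraries. A few KO sums held the high values of Pmch: KO replicate 10 had 17.9 CPM, KO replicate 9 had 9.83 and KO replicate 8 had 2.29, while KO sums had a median of 0.267 CPM, WT sums one of 0.169 CPM, and 5 of the 10 KO sums lay below the WT mean. Without KO replicate 10 the Pmch difference was 3.01 ± 0.89, and without the striatum libraries 0.48 ± 0.36. Dopamine and striatal signalling genes (14 of 19 higher, median 0.03) and orthologues of genes reported in attention deficit hyperactivity disorder (12 of 21 higher, median 0.01) held no gene that passed. The region markers of striatum are not independent of the dopamine and striatal list, since the lists share genes such as Drd2. Of these markers 9 of 9 were higher in KO (median 0.06, none with an unadjusted p under 0.05). Their summed level was 2035 to 3064 CPM in KO and 2152 to 2921 CPM in WT sums. The part of striatal tissue in the dopamine and striatal list was not tested.

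**Figure D5:**
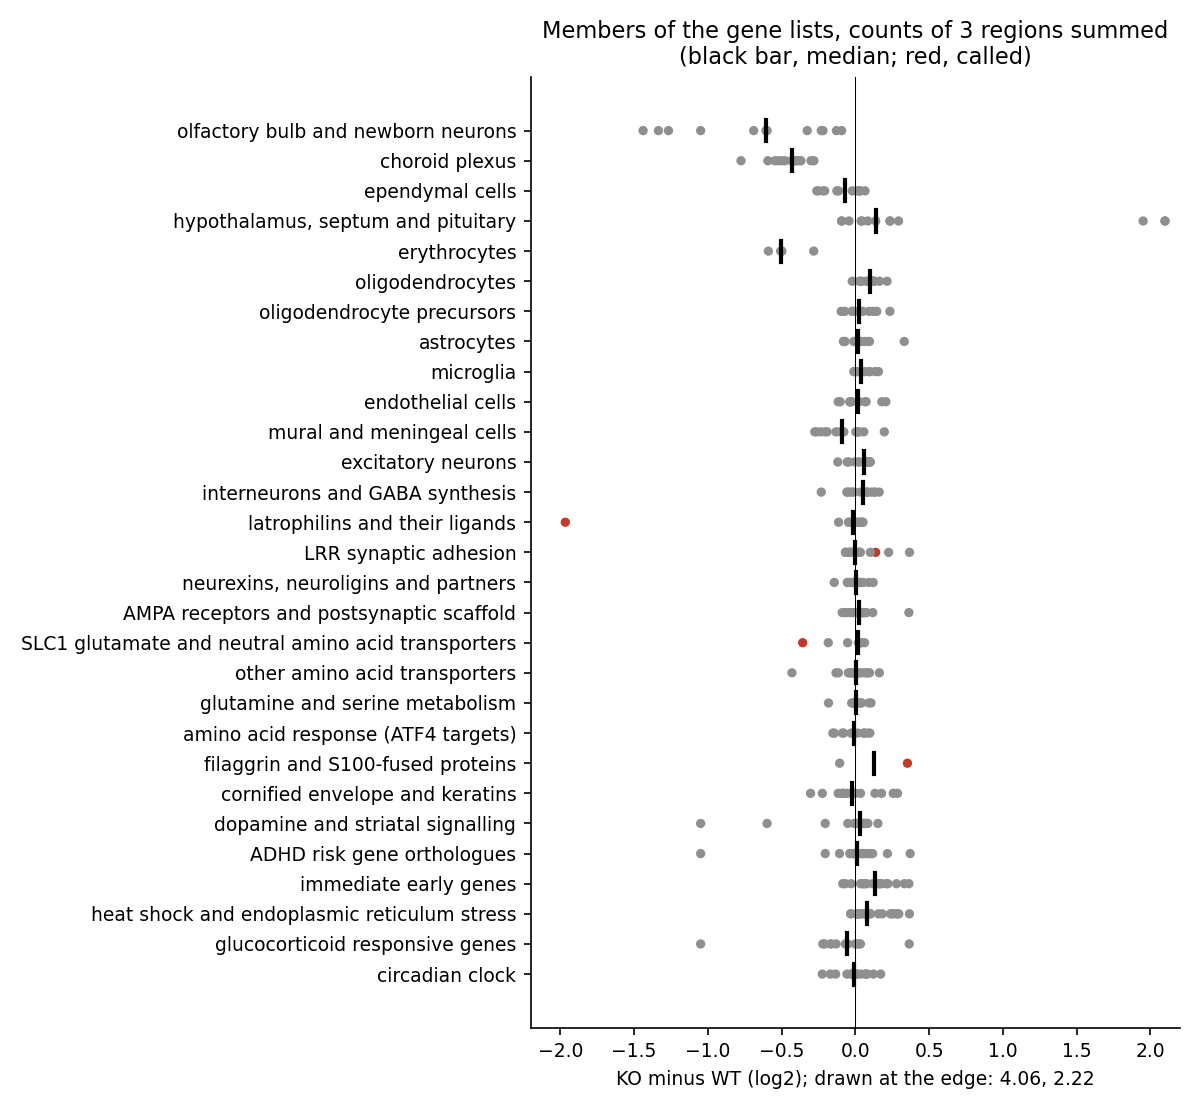
Log2 difference, KO minus WT (horizontal), of the tested members of the gene lists, one row per list and one point per gene, with the list's median as a black bar and called genes in red. The olfactory bulb, choroid plexus and erythrocyte lists lie wholly below 0, and most other medians lie close to 0.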

How the data were processed

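Whole-number read counts per gene and library were deposited by the authors in 1 combined table, with no normalization. The submitters' processing notes name the build GRCm38, STAR 2.5.2b, bedtools, cutadapt 1.16, FastQC 0.11.4 and DESeq2 1.16.1, with no roles. Each library was mapped to its sample by its column name. No column lay outside the samples.

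Counts of the 3 regions with equal genotype and replicate number were summed (10 KO, 10 WT). In R 4.3.3, edgeR 4.0.16 filtered low genes (filterByExpr), scaled by TMM and tested genotype with the quasi-likelihood F test over all 16676 kept genes. Calls were made at a Benjamini-Hochberg adjusted p under 0.05. The interaction was fitted on 60 libraries with animal and region terms. Levels are CPM and fold differences are log2. Alternatives used DESeq2 1.42.0 and limma 3.58.1. Pseudogenes were searched with blastn 2.17.0 and aligned with Biopython 1.88. The scripts were tested on simulated data.

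Equal numbers within a genotype were taken as 1 animal, which the labels do not state, and p-values measure the spread between these sums. Across regions, libraries of 1 number had median correlations of their deviations of 0.211 to 0.291, against -0.0317 to -0.0229 for other numbers, over 9978 genes. Between hippocampus and striatum the lowest were -0.116 in KO and -0.0669 in WT, and 5 of 10 KO and 6 of 10 WT libraries correlated best with their own number, so this check leaves the assumption uncertain for some numbers. None of the 45 pairs of sums in each genotype agreed within sampling noise (chi-square per degree of freedom of 10.4 or more).

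Named were Adgrl3, Flg, Lrrtm2 and Slc1a5, every call off chromosome 5, the next 10 there by p, the 6 chromosome 5 genes of smallest p besides Adgrl3, called list members or else up to 2 of smallest p in a list, and up to 6 genes of smallest interaction p. Further genes given as values (Slc1a2, Slc1a4, Lrrtm1, Lrfn2, Slitrk6, Adgrl1, Adgrl2, Tenm4, Flrt2, Flrt3, Tchh, Ctnna1, Stbd1, Srd5a3, Adamts3 and Mthfd2l) were chosen after their values were seen, as were the pseudogene search and the scale for WT replicate 5. The comparison and the 36 gene lists were chosen with earlier results of these data known.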

Additional observations from a re-analysis of the deposited data

Results flagged for a closer look

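For each of the 82 named genes the 10 sums of each genotype were searched for a highest or lowest value far from the rest (Dixon's test at its 95% critical value). Of the 164 groups 18 held such a sum, where chance flags about 1 in 20 groups. The gene levels of a sum are not independent of each other.

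WT replicate 5 gave 7 of the 18. Its Flg level was 12.4 CPM, against 8.08 to 9.24 CPM in the other WT sums. On chromosome 5 it had 11.7 CPM of Cox18 (8.26 to 9.47 in the others), 18.7 CPM of Naaa (23.8 to 27), 14.5 CPM of Sdad1 (17.1 to 19.8), 72.1 CPM of Coro1c (84.4 to 94.7) and 124 CPM of Rplp0 (152 to 172). These 6 values lay towards or inside the KO range. Its level of the dopamine transporter gene Slc6a3 was 3 CPM, against 0.297 to 0.551 CPM in the other WT sums, and away from the KO sums.

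Among KO sums, replicate 7 stood apart in Th (4.92 CPM, against 2.44 to 3.4 in the other KO sums) and Nudt8 (7.32 CPM, against 4.39 to 5.5). KO replicate 10 stood apart in Slc6a3 (0.91 CPM, against 0.198 to 0.337), the glutaminase gene Gls2 (19.9 CPM, against 15.8 to 17.7) and the cytochrome oxidase subunit gene Cox6c (141 CPM, against 110 to 119). KO replicate 4 had 22.4 CPM of Cspg4 (17.5 to 19.9 in the other KO sums), and KO replicate 1 had 41.5 CPM of the clock gene Per3 (25 to 31.5).

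Among WT sums, replicate 2 had 1.74 CPM of Ccdc113 (2.08 to 2.42 in the other WT sums), replicate 6 had 45.5 CPM of Mdga2 (50 to 53.4), replicate 7 had 0.97 CPM of the vasopressin gene Avp (0.127 to 0.312) and replicate 8 had 13.2 CPM of Gpc4 (15.2 to 17.2).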

How the results depend on the processing

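Adgrl3 kept its direction and its call in the 13 alternatives that tested it (-2.02 to -1.90) and in the 20 fits without 1 sum (-1.99 to -1.92). The number of calls moved. Against 27 genes in all and 4 off chromosome 5 in edgeR, DESeq2 gave 131 and 84, edgeR on the 60 single libraries with a region term, which counts the regions of an animal as separate, gave 650 and 539, and voom on 60 libraries with animal as a random block gave 187 and 130. The 4 genes were among the calls of these 3. Off chromosome 5, the mean log2 CPM over regions gave 7 calls, no filter on low counts 2 and sums without prefrontal cortex 2. With the score of olfactory bulb genes as a covariate there were 5 calls, 0 off chromosome 5 (793 with an unadjusted p under 0.05). With chromosome 5 and mitochondrial genes left out of the fit and of the adjustment there were 0 (1583 with an unadjusted p under 0.05). There Flg had an unchanged difference of 0.35 and an adjusted p of 0.128. Leaving out 1 sum gave 19 to 48 calls in all and 2 to 18 off chromosome 5, with 18 without KO replicate 5, 17 without KO replicate 7, 12 without KO replicate 1 and 7 each without KO replicate 2 and WT replicate 7. Flg and Slc1a5 passed in all 20 of these fits. The interaction gave 0 to 16 calls off chromosome 5 when an animal was left out, 4 without animal terms (no replicate block) and 3 in voom.

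With the replicate block, 11 genes passed, 0 of them off chromosome 5 (1472 with an unadjusted p under 0.05), and Flg had 0.36 ± 0.06 with an adjusted p of 0.0642. KO and WT sums of equal number deviated together in only 2 of 10 pairs (correlations over genes of -0.394 to 0.406, median -0.0513), and 1 of 10 KO sums correlated best with its own number, so the numbers are not taken as pairs.

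Signs turned, with none passing, for Krt73 (-0.0037), Pifo (0.083), C1ql2 (0.32) and Dsp (0.18) without hippocampus; for Th (0.067), Slc6a3 (0.32), Scgn (0.10), Nmb (0.070) and Trh (0.48) without prefrontal cortex; for Kl (0.0018), Scgn (0.045), Nmb (0.12) and Trh (0.19) with the olfactory bulb score; for C1ql2 on mean log2 CPM (0.035); and for C1ql2 (0.062) and Dsp (0.0078) on 60 libraries. The cause of these changes was not tested. The Y-linked covariate was not run, since Y-linked levels differed by only 0.221 on the log2 scale. Genes such as Fscn2, with 21 to 51 reads in a sum, are limited by depth.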
